A study of Homo sapiens with 18 samples.

Results

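The 42 DNA replication genes described here were chosen for known roles in origin licensing, helicase activation, strand synthesis, nucleotide supply, chromatin assembly and S phase control, and each was found by its gene symbol in the deposited tables. All 42 were listed in both tables, among 14308 genes in MDA-MB-231 and 14768 in T47D. The cells were 2 established human breast cancer lines, MDA-MB-231, which lacks the estrogen receptor, and T47D, which has it; both carried a G0S2 gene switched on by doxycycline. Each line was sampled without doxycycline (control), and after 3 and 15 days of doxycycline at 0.5 ug/ml, with 3 RNA-seq libraries in each of the 6 groups. The growth text attached to every sample, controls included, mentions 15 days of the drug, so the groups follow the sample titles and the overexpression label, and only that text gives the dose. Both doxycycline groups differ from control in the drug as well as in G0S2. Cells given the drug without the introduced gene were not analysed here. G0S2, the drug and any difference in time in culture between the groups therefore cannot be told apart. Whether libraries of one group are separate cultures is not in the labels; the p-values then describe library-to-library spread, possibly technical.

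Before each S phase, ORC1, ORC6, CDC6 and CDT1 load the MCM2 to MCM7 helicase onto origins. CDC45, the GINS complex (GINS1 to GINS4) and MCM10 then turn the loaded helicase on. Primase and the polymerases (PRIM1, PRIM2, POLA1, POLA2, POLE, POLE2, POLD1, POLD3) prime and copy the strands. The sliding clamp PCNA, which RFC1 to RFC5 load, holds polymerases delta (POLD1, POLD3) and epsilon (POLE, POLE2) to DNA. FEN1, EXO1 and LIG1 process and join the fragments, RRM1, RRM2 and TYMS supply deoxynucleotides, CHAF1A and CHAF1B deposit histones, and UHRF1 brings the DNA methyltransferase DNMT1 to newly copied DNA. CLSPN links the fork to the checkpoint, DTL directs the destruction of CDT1 once forks are running, and E2F1 is the transcription factor whose targets include much of this set. In cancer cells the genes are read as a proliferation programme, since their transcripts rise as cells enter S phase.

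G0S2 checked the labels: it had 25.02 to 25.48 CPM (counts scaled to a common library total) in the MDA-MB-231 controls and 1103 to 1506 CPM in the doxycycline libraries. In T47D it had 0.277 to 0.90 CPM in the controls and 735.9 to 992.8 CPM with doxycycline. The lines matched their labels. T47D had 267 CPM of ESR1 and 765 CPM of PGR on average, neither of which was listed in MDA-MB-231. MDA-MB-231 had 2351 CPM of VIM and 1350 CPM of AXL, neither listed in T47D. These genes came from lists of 12 identity genes for each line. In MDA-MB-231, 8 of the T47D genes were listed, summing to 892 to 1045 CPM against 11902 to 12718 CPM in T47D. In T47D, 3 of the MDA-MB-231 genes were listed, summing to 48.2 to 61.3 CPM against 8216 to 8641 CPM in MDA-MB-231. Libraries held 37012519 to 52380759 reads in MDA-MB-231 and 40123505 to 50973067 reads in T47D, and the group mean of every member rested on at least 850.3 reads. One library stood apart: T47D day 15 replicate 2 differed from the other libraries of its group by a chi-square per degree of freedom of 14.5 and 23.6, against 1.74 to 5.92 for the 16 other pairs within groups. Counts and named members at T47D day 15 are therefore given with and without it.

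The promoters of the members were examined for letters bound by the E2F and NF-Y factors, because E2F1 was among the genes called below. Promoter sequence was taken from RefSeq (GRCh38.p14), as the 250 bases before each annotated start; 38 of the 42 members matched, with 49 promoters, and POLD3, GINS4, MCM4 and MCM5 had no entry. Any of the 4 E2F-type strings TTTCGCGC, TTTGGCGC, TTTCCCGC and TTTGCCGC, on either strand, was present in 16 of the 49 promoters (32.7%), against 979 of 35116 promoters in the whole table (2.79%). CCAAT, the string of the NF-Y box, was present on either strand in 29 (59.2%), against 32.0% of all promoters. TTTGAA, a string of the cell cycle homology region found in mitotic genes, was present in 1 (2.04%), against 13.3%. Over the 17277 promoters of genes listed in either deposited table, the shares were 4.01% (E2F-type), 32.8% (CCAAT) and 9.35% (TTTGAA). No string searched contains another. A match is a description of the sequence and not a bound site. The 3 stretches shown belong to members called in more than 1 comparison, each read 5′ to 3′ on the strand of the gene, with the E2F-type letters in capitals. They lie on chr20:33686394-33686423 (minus strand), chr16:85688967-85688996 (minus strand) and chr19:4909471-4909500 (plus strand).
E2F1: ctttcGCGGCAAAaaggaTTTGGCGCgtaa
GINS2: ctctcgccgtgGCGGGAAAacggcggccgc
UHRF1: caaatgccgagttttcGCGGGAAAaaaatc
The E2F1 stretch holds 2 matches, which begin 33 and 20 bases before the start, and the GINS2 match begins 31 bases before it. The UHRF1 match shown begins 14 bases before 1 of its 3 annotated starts. The 250 bases before 2 of those 3 starts each held 1 match. EXO1, also called more than once, held no such string before either of its 2 starts.

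Without doxycycline, the members spanned a wide range of levels, and most had similar levels in both lines. Levels per gene length were compared as CPM per kilobase of annotated exon (GENCODE release 29). PCNA had the highest level in both lines, 168 ± 0.315 CPM per kb in MDA-MB-231 and 248 ± 4.52 in T47D (SD, n = 3 libraries), and GINS3 the lowest, 4.36 ± 0.221 and 3.70 ± 0.0422. TYMS ranked 2 in MDA-MB-231 and 9 in T47D, while MCM3 ranked 3 and 2. The tables were normalized separately, so the ratio between lines was not tested. The log2 ratio of T47D to MDA-MB-231 controls had a median of 0.08 over the members, 25 being higher and 17 lower in T47D. It passed 2-fold for 7 of 42 members (16.7%). The share was 31.9% of the 10571 genes with a mean of at least 2 CPM over all libraries of each line.

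GINS2 stood furthest from the diagonal, with 246 ± 5.03 CPM in T47D controls and 31.5 ± 1.55 CPM in MDA-MB-231 controls (SD, n = 3), a ratio of 7.81. POLA2, the accessory subunit of DNA polymerase alpha, was 3.60-fold higher in T47D by the same ratio, CDT1 2.49-fold, MCM4 2.21-fold and GINS1 2.13-fold. CLSPN and TYMS were the 2 members lower by more than 2-fold in T47D, with ratios of 0.319 and 0.412. Reads of overlapping genes may enter these values: 35.1% of POLA2 exon bases and 46.6% of TYMS exon bases (the latter with ENOSF1 and TYMSOS on the other strand) belong to another annotated gene as well, and the use of strand in counting is not given in the sources used here.

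**Figure D1:**
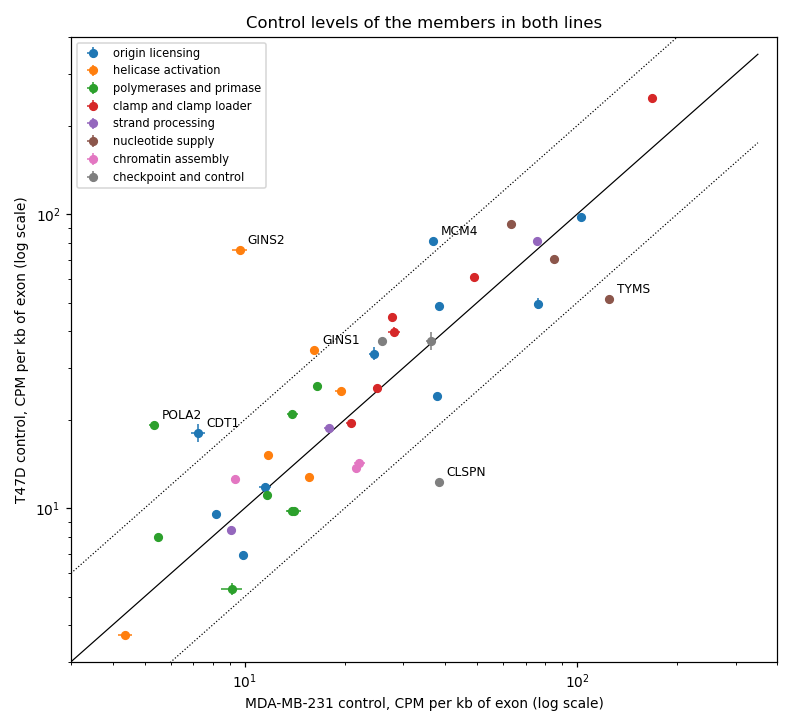
Mean control level of each member in CPM per kb of exon (log axes), MDA-MB-231 across and T47D up; bars are SDs of 3 libraries, colours are roles, the solid line marks equal levels and the dotted lines 2-fold. GINS2 lies farthest above the line (ratio 7.81) and CLSPN farthest below it (0.319).

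In MDA-MB-231 at day 3, which asks how the receptor-negative line first responds, most members sat slightly below control. E2F1 alone fell by the test used throughout (limma, with p adjusted across the whole table and called under 0.05), and no member rose. The count of 1 lower among 42 stands beside 0.874% of all genes called lower, and the count of 0 higher beside 0.895% called higher. At an unadjusted p under 0.05, 0 members were higher and 14 lower, beside 7.01% and 6.55% of all genes, and limma's voom weights also gave 0 higher and 1 lower. The median log2 fold of the members was -0.04, against 0.0016 over all genes. By library it was -0.04 in each of the 3 day 3 libraries, each below the 3 control libraries (-0.01 to 0.01). In bulk RNA, fewer cells in S phase and less RNA per cell cannot be told apart.

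Of the 42 members, 20 had every day 3 library below every control library in MDA-MB-231 and 0 had every one above; over all genes these shares were 10.1% and 10.3%. The 20 came from each role: the licensing genes CDC6, CDT1, MCM4 and MCM7, the helicase genes GINS1, GINS4 and MCM10, the polymerase genes PRIM1 and POLE, the clamp genes PCNA, RFC2 and RFC4, the nuclease FEN1, all 3 nucleotide genes (RRM1, RRM2 and TYMS), the chromatin genes CHAF1B and UHRF1, and CLSPN and E2F1. The sizes were small. Each of the 42 members had a 95% interval within a 1.25-fold change in either direction (0.32 on the log2 scale), as did 10703 of all 14308 genes. CDT1 (-0.13, SE 0.0503, adjusted p = 0.209), CHAF1B (-0.12, SE 0.0379, adjusted p = 0.104) and RFC4 (-0.10, SE 0.0309, adjusted p = 0.0875) had the lowest folds after E2F1 and were not called.

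E2F1 lies on chromosome 20 (33675683 to 33686404, minus strand, GRCh38) and shares no exon bases with another annotated gene. Its levels in MDA-MB-231 were 92.2, 93.2 and 87.4 CPM in the controls, 85.1, 81.4 and 81.5 CPM at day 3, and 83.96, 82.9 and 76.2 CPM at day 15. Every day 3 and day 15 library lay below every control library, and the day 3 and day 15 libraries overlapped. E2F1 fell by 0.14 on the log2 scale at day 3 (SE 0.0363, adjusted p = 0.047) and by 0.17 at day 15 (SE 0.0363, adjusted p = 0.00433), the same 3 controls serving both comparisons. The day 3 call was kept when control replicate 3 was left out and lost without any one of the other 5 libraries (adjusted p 0.0201 to 0.28 over the 6 omissions). The day 15 call was lost without control replicate 2 alone (adjusted p = 0.0513).

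By day 15 in MDA-MB-231 the median of the members was above control again. Against control, 1 member rose and 1 fell, beside 3.42% of all genes called higher and 4.77% called lower. With every library centred on its median, 2 members rose, and over all genes the split of higher to lower calls turned from 490 and 683 to 658 and 502. The member that rose was EXO1, an exonuclease of mismatch repair and DNA end resection (chromosome 1, 241847967 to 241895148, plus strand), and the one that fell was E2F1. That median was 0.02, against 0.001 over all genes, and the 3 libraries had 0.01, 0.03 and 0.03. In 9 members every day 15 library lay above every control library (11.7% over all genes) and in 1, E2F1, below (12.6%). The 9 were ORC1, ORC6, CDC45, POLD3, PCNA, EXO1, RRM1, RRM2 and DTL. For the helicase genes MCM2 to MCM7 the folds at day 15 ran from -0.10 (MCM2, adjusted p = 0.0649) to 0.02 (MCM4), and none was called. Again each of the 42 intervals lay within a 1.25-fold change.

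EXO1 had 74.3, 71.8 and 75.99 CPM in the controls, 70.7, 71.0 and 73.7 CPM at day 3, and 79.3, 79.8 and 79.6 CPM at day 15. The 3 day 15 libraries were close together and lay above the other 6, while the control and day 3 libraries overlapped. EXO1 rose by 0.10 on the log2 scale against control (SE 0.0322, adjusted p = 0.0427) and by 0.15 against day 3 (SE 0.0322, adjusted p = 0.00817). The call against control was lost when any library but control replicate 3 was left out (adjusted p 0.0201 to 0.238 over the 6 omissions). That against day 3 was lost without day 3 replicate 1 or 2 (highest adjusted p = 0.0764).

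Day 15 against day 3 in MDA-MB-231 was the comparison with the most member calls: 10 rose and 0 fell, beside 2.47% of all genes called higher and 2.86% called lower. These were CDC6 and MCM4 (licensing), MCM10 (helicase activation), PRIM1 and POLD3 (strand synthesis), PCNA and RFC4 (clamp and its loader), EXO1, the ribonucleotide reductase subunit RRM2, and CLSPN. At an unadjusted p under 0.05, 17 were higher and 0 lower, beside 10.2% and 11% of all genes, and voom weights gave 8 and 0. The median was 0.06, against -0.01 over all genes. In 23 members every day 15 library was above every day 3 library, and in 0 below, beside 12% and 13% of all genes. The comparison shares its day 3 libraries with the day 3 dip and its day 15 libraries with the comparison against control, so the 3 are not independent.

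PRIM1, the catalytic subunit of primase (chromosome 12, 56731596 to 56752373, minus strand), had the largest of these rises. It had 41.7, 39.4 and 39.7 CPM in the controls, 37.15, 37.9 and 38.9 CPM at day 3, and 44.4, 41.6 and 42.9 CPM at day 15. Day 3 was below both other groups without overlap, and the control and day 15 libraries overlapped by 1 library each. It rose by 0.18 from day 3 to day 15 (SE 0.0401, adjusted p = 0.0108), and 21.6% of its exon bases are shared with other annotated genes, NACA among them. RFC4, a clamp loader subunit (chromosome 3, 186789880 to 186807058, minus strand), had 84.8, 82.5 and 82.1 CPM in the controls, 78.9, 77.4 and 75.7 CPM at day 3, and 84.2, 84.7 and 86.9 CPM at day 15. Its pattern was that of PRIM1, with day 3 below both other groups and controls and day 15 overlapping. RFC4 rose by 0.14 from day 3 (SE 0.0309, adjusted p = 0.0091), and RRM2 by 0.12 (SE 0.0244, adjusted p = 0.00463), from a mean of 326 ± 6.58 CPM to 355 ± 9.73 CPM (SD, n = 3).

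These calls had a thin margin. With limma's variance moderated without trend or robust weights, 0 of the 42 members were called from day 3 to day 15, and over all genes 32 rather than 763. Leaving out 1 library gave between 1 and 10 called members. RFC4 was lost without day 3 replicate 2 alone (adjusted p = 0.0593), RRM2 without day 3 replicate 1 or 2 (highest 0.0578), MCM10 without day 3 replicate 1 or day 15 replicate 1 (highest 0.0969), and PRIM1 without day 3 replicate 1 or 2 or day 15 replicate 1 (highest 0.0848). CDC6, CLSPN and POLD3 were kept only without day 15 replicate 2, and PCNA and MCM4 in none of the 6 omissions. The median of the members stayed between 0.05 and 0.06 over the same omissions.

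**Figure D2:**
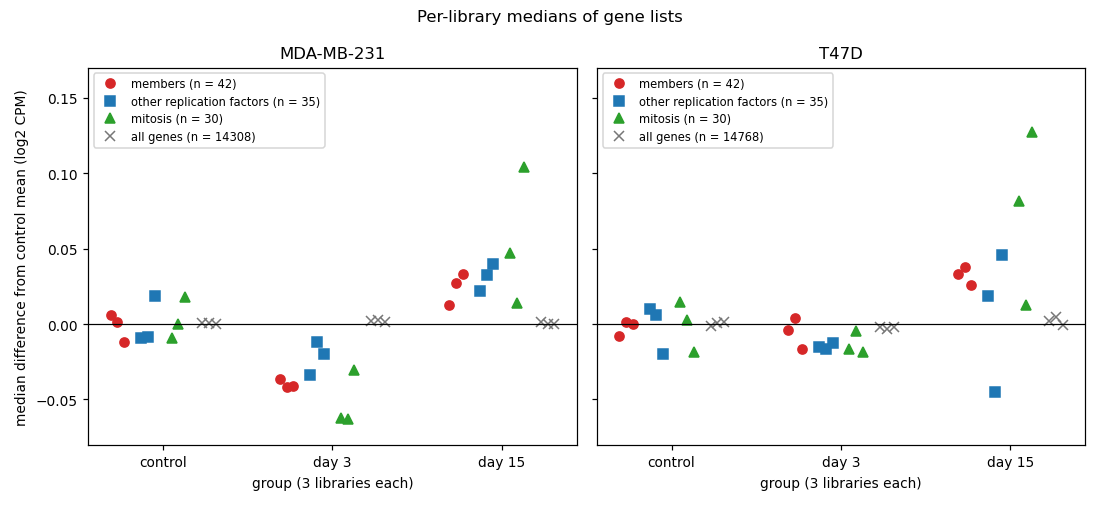
Median difference from the control mean (log2 CPM) in each library, for the 42 members, 35 other replication factors, 30 mitosis genes and all genes of the table; each point is 1 library. In MDA-MB-231 the members' points lie below 0 at day 3 (-0.04 each) and above 0 at day 15 (0.01 to 0.03), and in T47D they lie above 0 at day 15 (0.03 to 0.04).

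**Figure D3:**
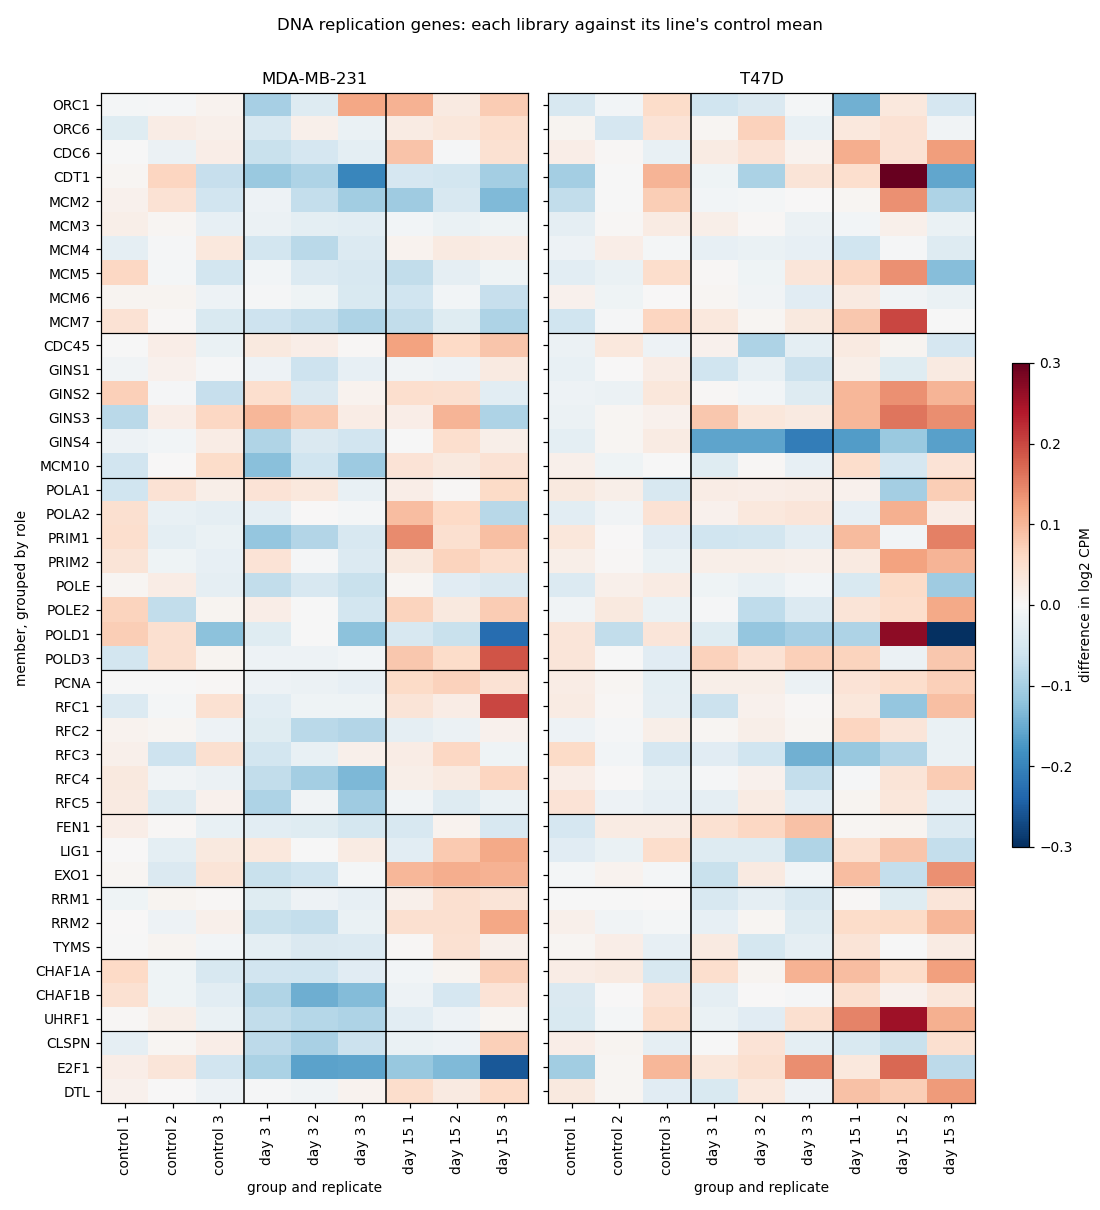
Difference of each library (columns) from the control mean of its line in log2 CPM, for every member (rows, grouped by role); red is higher, blue lower, and the colour scale ends at 0.3 either way. The MDA-MB-231 day 3 columns are mostly pale blue, GINS4 is blue in all 6 doxycycline libraries of T47D, and T47D day 15 replicate 2 is red in CDT1 and POLD1.

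In T47D at day 3 the members moved little. GINS4 fell and no member rose, beside 0.718% of all genes called lower and 1.16% called higher. The unadjusted count was 0 higher and 1 lower, beside 4.76% and 5.35% of all genes, and voom weights gave 0 and 1. The median of the members was -0.01 (all genes -0.0026), with library values of -0.004, 0.004 and -0.02 among control values of -0.01 to 0.001. In 3 members (GINS3, POLD3 and FEN1) every day 3 library lay above every control, and in 5 (MCM4, GINS1, GINS4, LIG1 and RRM1) below, beside 10% and 11.9% of all genes. The 95% interval was within a 1.25-fold change for 41 of 42 members, the exception being the polymerase subunit POLD1 (-0.34 to 0.17).

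GINS4 encodes one of the 4 subunits of the GINS complex, which bridges CDC45 and the MCM ring. It lies on chromosome 8 (41529206 to 41545046, plus strand), and 23.6% of its exon bases are shared with genes on the other strand. In T47D it had 81.4, 83.5 and 84.5 CPM in the controls, 74.5, 74.5 and 72.0 CPM at day 3, and 74.1, 76.98 and 74.2 CPM at day 15. All 6 doxycycline libraries lay below all 3 controls, and day 3 and day 15 overlapped. GINS4 fell by 0.17 at day 3 (SE 0.0358, adjusted p = 0.0179) and by 0.15 at day 15 (SE 0.0358, adjusted p = 0.0163), with the same controls in both. Without T47D day 15 replicate 2 its day 15 fold was -0.16 (adjusted p = 0.000968).

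The GINS4 call at day 3 was kept only without T47D control replicate 1 (adjusted p 0.0441 to 0.133 over the 6 omissions). At day 15 it was lost without control replicate 2 or 3 or day 15 replicate 1 (highest adjusted p = 0.0753). The other 3 GINS subunits were not called lower in T47D, and their day 15 folds were 0.003 for GINS1, 0.11 for GINS2 and 0.13 for GINS3 (adjusted p = 0.113, the least abundant member). In MDA-MB-231, GINS4 had 63.5 to 65.2 CPM in the controls, 60.3 to 62.3 CPM after 3 days and 64.1 to 66.4 CPM after 15 days, and was not called.

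At day 15 in T47D, GINS2 and UHRF1 rose and GINS4 fell, beside 5% of all genes called higher and 6.23% called lower. The median of the members was 0.02 (all genes 0.0028), and the 3 libraries, replicate 2 included, had 0.03, 0.04 and 0.03. In 10 members every day 15 library was above every control (12.9% of all genes), and in 1, GINS4, below (13.4%). The 10 were CDC6, GINS2, GINS3, PRIM2, POLE2, PCNA, RRM2, CHAF1A, UHRF1 and DTL. Against day 3, GINS2 and UHRF1 rose and 0 members fell, beside 2.23% and 3.35% of all genes. At an unadjusted p under 0.05 the counts were 6 and 1, beside 8.27% and 9.68% of all genes, and voom weights gave 2 and 0. In 11 members every day 15 library was above every day 3 library and in 1, FEN1, below, beside 10.5% and 11.9%. FEN1, the flap endonuclease that trims Okazaki fragments, had a fold of -0.07 there (adjusted p = 0.242).

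GINS2, another GINS subunit, lies on chromosome 16 (85676198 to 85690073, minus strand). In T47D it had 243.6, 243.0 and 252.0 CPM in the controls, 246.8, 244.6 and 239.6 CPM at day 3, and 263.7, 270.6 and 264.4 CPM at day 15. The 3 day 15 libraries lay above the other 6, which overlapped among themselves. GINS2 rose by 0.11 on the log2 scale against control (SE 0.0297, adjusted p = 0.0248) and by 0.13 against day 3 (SE 0.0297, adjusted p = 0.0213). It had 30.03 to 33.1 CPM over the 9 MDA-MB-231 libraries, with no order between the groups. Centring each library on its median ended the call against control (adjusted p = 0.0656).

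UHRF1 (chromosome 19, 4903080 to 4962154, plus strand) had 68.0, 69.9 and 72.9 CPM in the T47D controls, 69.3, 68.7 and 72.7 CPM at day 3, and 77.97, 83.8 and 75.6 CPM at day 15. The day 15 libraries again lay above the other 6, with replicate 2 the highest. UHRF1 rose by 0.17 against control (SE 0.0454, adjusted p = 0.0266) and by 0.17 against day 3 (SE 0.0454, adjusted p = 0.0405). Without replicate 2 the folds were 0.13 (adjusted p = 0.0164) and 0.13 (adjusted p = 0.0203). In MDA-MB-231 it had 109.9 to 112.8 CPM in the controls, 104.6 to 105.8 CPM after 3 days and 109.0 to 111.9 CPM after 15 days; day 3 lay below both other groups and was not called (-0.08, adjusted p = 0.134).

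Against control, GINS2 and UHRF1 were both lost without T47D control replicate 1 or 2 or day 15 replicate 1 (highest adjusted p 0.123 and 0.122). Against day 3 both were lost without any 1 of the 3 day 3 libraries or day 15 replicate 1 (highest 0.106 and 0.187). Leaving out day 15 replicate 2, the library that stood apart, raised the number of calls. UHRF1, PRIM1, CDC6, EXO1, DTL, CHAF1A, GINS2 and RRM2 (8 of 42) then rose against control and POLD1 and GINS4 fell, while over all genes 1676 (11.35%) rose and 2029 (13.74%) fell. Against day 3, 7 members then rose (PRIM1, EXO1, UHRF1, DTL, GINS2, RRM2 and CDC6) and 0 fell, while over all genes 1143 (7.74%) rose and 1461 (9.893%) fell. PRIM1 had a fold of 0.17 from day 3 without that library (adjusted p = 0.00187) and 0.13 with it (adjusted p = 0.12). POLD1, the catalytic subunit of polymerase delta, had 24.6, 31.6 and 20.9 CPM at day 15, and CDT1 62.3, 74.7 and 53.97 CPM; in both, replicate 2 was the highest of the 9 libraries and replicate 3 the lowest.

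**Figure D4:**
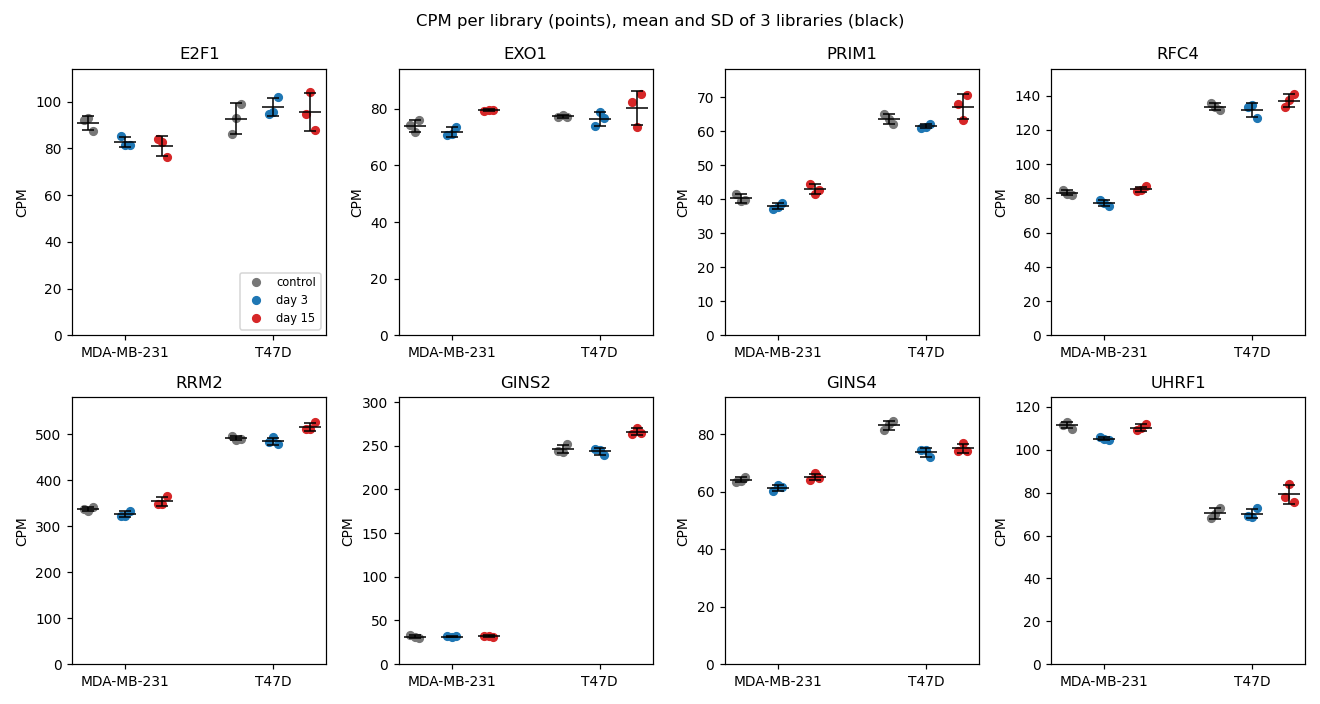
CPM in every library for E2F1, EXO1, PRIM1, RFC4, RRM2, GINS2, GINS4 and UHRF1, by line and group; bars are the mean and SD of 3 libraries and each axis starts at 0. T47D GINS4 is at 81.4 to 84.5 CPM in the controls and below that with doxycycline, and T47D UHRF1 and GINS2 are highest at day 15.

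The response of the members was then compared between the lines, as the difference of the within-line log2 folds over the 12666 genes in both tables. At day 3, 0 members differed in either direction, beside 1.41% of genes with the higher fold in T47D and 1.05% with the lower. At an unadjusted p under 0.05 the counts were 3 and 1, beside 5.05% and 6.63%. The voom weights were not run for this contrast. At day 15, 1 member had the higher fold in T47D and 1 the lower, beside 4.07% and 5.37%. UHRF1 differed by 0.18 (95% interval 0.08 to 0.29, adjusted p = 0.0247), with folds of 0.17 in T47D and -0.01 in MDA-MB-231. GINS4 differed by -0.17 (-0.26 to -0.08, adjusted p = 0.0143), with folds of -0.15 and 0.02.

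The GINS4 difference was called in each of 12 omissions of 1 library (adjusted p 0.00612 to 0.0401). That of UHRF1 was called in 7 of 12 and lost without MDA-MB-231 control replicate 1 or 2, MDA-MB-231 day 15 replicate 1, or T47D control replicate 1 or 2 (highest adjusted p = 0.0769). E2F1, called in MDA-MB-231 alone, was not shown to differ between the lines, with differences of 0.21 at day 3 (0.04 to 0.38, adjusted p = 0.248) and 0.21 at day 15 (0.04 to 0.38, adjusted p = 0.114). Its T47D libraries spread widely, from 86.2 to 99.1 CPM in the controls and from 87.7 to 104.3 CPM at day 15. The interval of the difference was within a 1.25-fold change for 39 of 42 members at day 3 and 39 of 42 at day 15, with E2F1, CDT1 and POLD1 outside on both days.

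**Figure D5:**
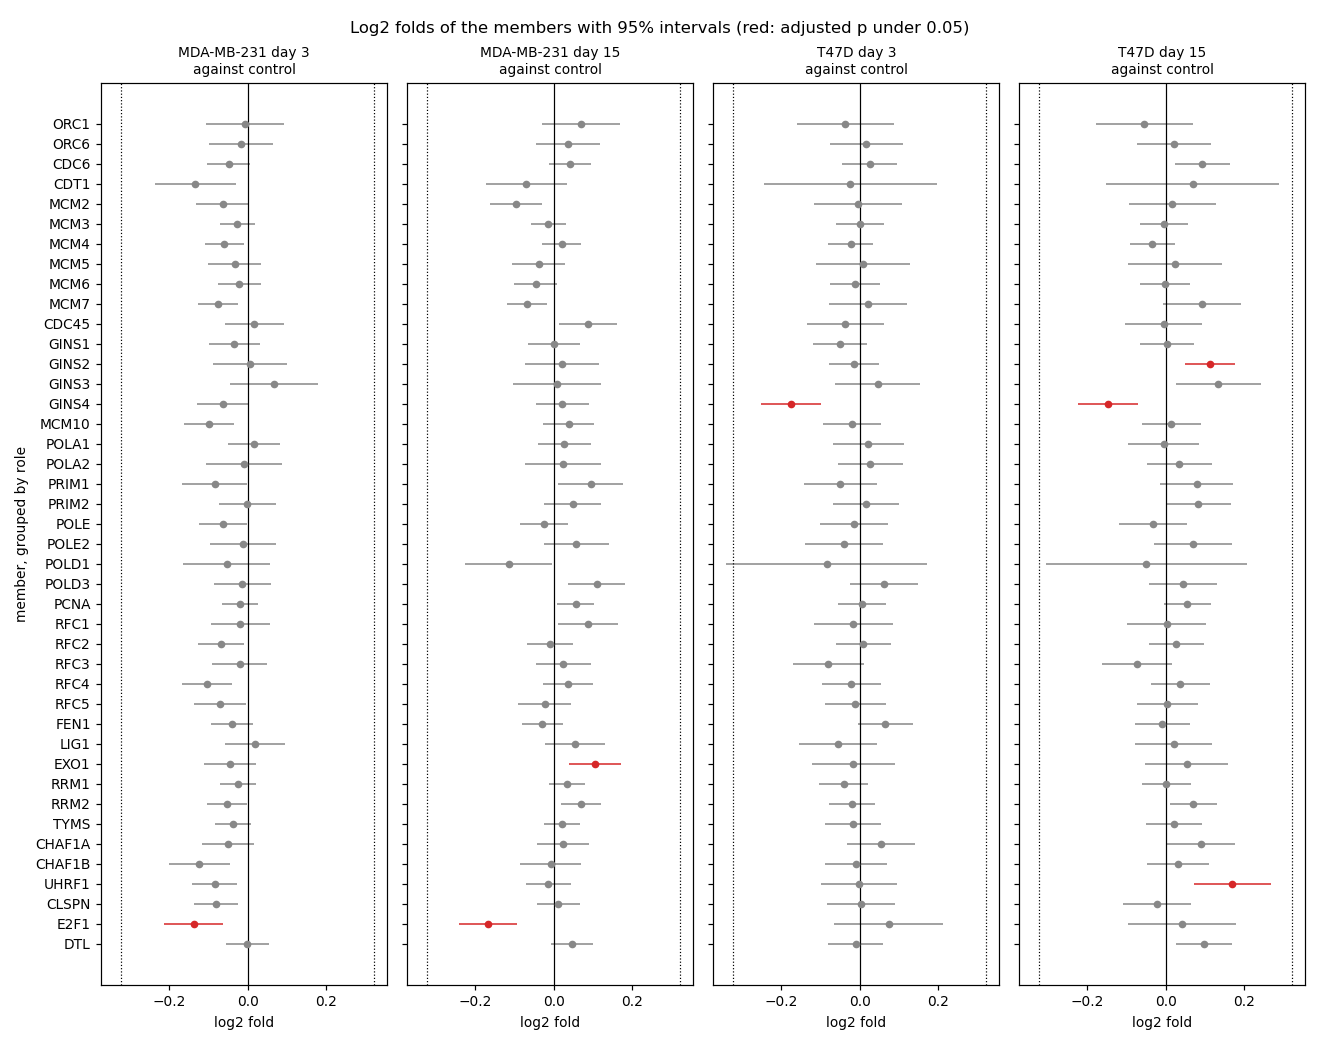
Log2 fold of each member against control with its 95% interval, in 4 panels by line and day; red marks an adjusted p under 0.05 and the dotted lines a 1.25-fold change. Each interval lies inside the dotted lines except that of POLD1 in T47D at day 3.

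Over the 6 comparisons within lines, 28 of the 42 members were called in none, 9 in 1 and 5 in 2 (E2F1, EXO1, GINS2, GINS4 and UHRF1). The 14 called at least once are 33.3% of the members, beside 22.1% of the 12666 genes in both tables, and the 5 are 11.9%, beside 8.79% called in 2 or more. The 28 included 8 of the 10 licensing genes (ORC1, ORC6, CDT1, MCM2, MCM3, MCM5, MCM6 and MCM7). They also included the loader subunits RFC1, RFC2, RFC3 and RFC5, and the chromatin assembly genes CHAF1A and CHAF1B. In the nucleotide group RRM1 and TYMS were not called, with folds from -0.04 to 0.06 over the 6 comparisons in both genes. Pseudogenes named after the gene are annotated for 6 members (PCNA, RFC3, RFC5, FEN1, RRM2 and TYMS). The authors' counting could have assigned reads to these. Their sequences were not compared, and copies under other names were not searched.

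Other genes of the same pathway were counted next. The shares of all genes called higher and lower stand beside the counts of this and the following lists. In MDA-MB-231 they were 0.895% and 0.874% at day 3, and 3.42% and 4.77% at day 15. From day 3 to day 15 they were 2.47% and 2.86%. In T47D they were 1.16% and 0.718% at day 3, 5% and 6.23% at day 15, and 2.23% and 3.35% from day 3. Without T47D day 15 replicate 2 they were 11.35% and 13.74% at day 15, and 7.74% and 9.893% from day 3. Of 35 other replication factors, 0 were called in either line at day 3, also with voom weights. At an unadjusted p under 0.05, 0 were higher and 6 lower in MDA-MB-231, beside 7.01% and 6.55% of all genes. In T47D these counts were 0 and 1, beside 4.76% and 5.35%. At day 15 in MDA-MB-231, 4 rose and 0 fell, among them the origin subunit ORC2 (0.14, adjusted p = 0.0217), DBF4, the activator of the CDC7 kinase (0.13, adjusted p = 0.0249), and WDHD1, which ties polymerase alpha to the helicase (0.12, adjusted p = 0.00539). At day 15 in T47D, 3 rose and 0 fell: CDC7 (0.20, adjusted p = 0.0428), the firing factor MTBP (0.17, adjusted p = 0.0438) and the nuclease DNA2 (0.13, adjusted p = 0.0463). From day 3 to day 15, 7 rose in MDA-MB-231 and 1 in T47D. Each of these 4 counts of rises fell as low as 0 when 1 library was left out, the 7 without MDA-MB-231 day 3 replicate 1, and each was 0 without trend. Without T47D day 15 replicate 2 the T47D counts were 4 higher and 2 lower against control, and 4 and 1 against day 3.

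In the nucleotide list of 15 further genes, SAMHD1, which degrades deoxynucleotides, had the largest called change. It rose in T47D by 0.72 at day 3 (SE 0.0316, adjusted p = 1.06e-09) and by 0.25 at day 15 (SE 0.0316, adjusted p = 0.000103), and it fell by 0.46 from day 3 to day 15 (adjusted p = 4.34e-07). Both calls against control were kept in each of 6 omissions. At day 15 in T47D, RRM2B, the alternative small subunit of ribonucleotide reductase, fell by 0.15 (adjusted p = 0.0246) and SHMT1, an enzyme of folate metabolism, by 0.14 (adjusted p = 0.00942), calls kept in 3 and 6 of 6 omissions. The other 12 genes were not called against control in T47D with all libraries, but without T47D day 15 replicate 2 the day 15 counts were 2 higher and 6 lower of 15. In MDA-MB-231 0 of the 15 were called against control, also with voom weights. At an unadjusted p under 0.05, 0 were higher and 2 lower at day 3, beside 7.01% and 6.55% of all genes. At day 15 the unadjusted counts were 3 and 1, beside 11% and 12.7%. Among 11 further chromatin assembly genes, HAT1, a histone acetyltransferase, rose in MDA-MB-231 at day 15 (0.13, adjusted p = 0.00502), and RBBP4, a histone chaperone, in T47D at day 15 (0.10, adjusted p = 0.0393). The HAT1 call was kept in 6 of 6 omissions and that of RBBP4 in 1 of 6 (highest adjusted p = 0.126), and without T47D day 15 replicate 2 the T47D count was 3 higher in place of 1. DNMT1, which UHRF1 guides, was not called in either line, with day 15 folds of -0.002 in MDA-MB-231 and 0.09 in T47D (adjusted p = 0.105).

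Among 24 genes of the E2F and RB axis, CDKN1A, the p21 inhibitor of cyclin-dependent kinases, rose in MDA-MB-231 at day 3. It had 41.5, 39.7 and 35.8 CPM in the controls, 47.3, 45.7 and 43.4 CPM at day 3, and 39.9, 39.9 and 38.8 CPM at day 15. Day 3 lay above both other groups. It rose by 0.22 at day 3 (SE 0.0463, adjusted p = 0.00762) and fell by 0.20 from day 3 to day 15 (adjusted p = 0.012), calls kept in 3 and 4 of 6 omissions. In T47D, CDKN1A was not called, with folds of -0.002 at day 3 and -0.09 at day 15. Its day 3 fold was not shown to differ between the lines (-0.22, adjusted p = 0.416). MYBL2, a transcription factor of the MuvB complex, fell at day 15 in MDA-MB-231 (-0.17, adjusted p = 0.00516). In T47D at day 15 CCND1 (cyclin D1) rose by 0.11 (adjusted p = 0.0211) and CDKN1B (p27) by 0.21 (adjusted p = 0.00653), calls kept in 3 and 6 of 6 omissions. These were the 2 calls of the list there with all libraries. Without T47D day 15 replicate 2 the list had 3 higher and 3 lower, beside 11.35% and 13.74% of all genes. CCNE2 (cyclin E2) was not called in either line, with folds of -0.01 to 0.08. CCND1 was not called in MDA-MB-231, with folds of -0.02 at day 3 and -0.01 at day 15. The day 15 fold of CCND1 differed between the lines (0.13, adjusted p = 0.00991).

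Genes of mitosis, the phase after replication, were measured beside the members. Of 30 such genes, 3 fell and 0 rose in MDA-MB-231 at day 3, beside 0.874% and 0.895% of all genes. The 3 were CDC20 (-0.12, adjusted p = 0.00801), PLK1 (-0.11, adjusted p = 0.0461) and FOXM1 (-0.11, adjusted p = 0.00766). The 3 became 0 without MDA-MB-231 day 3 replicate 1, and PLK1 was kept in 0 of 6 omissions (highest adjusted p = 0.192). At day 15 against control 5 rose and 1 fell, beside 3.42% and 4.77% of all genes. TTK was highest (0.16, adjusted p = 0.00282) and CCNF lower (-0.13, adjusted p = 0.0259). The 5 ran from 2 to 13 when 1 library was left out. From day 3 to day 15, 16 rose and 0 fell, beside 2.47% and 2.86% of all genes. The 16 ran from 5 to 22 over the same kind of omission. Without trend each of these MDA-MB-231 counts was 0. In T47D at day 15, 5 rose and 0 fell, beside 5% and 6.23% of all genes. The rises were led by NUF2 (0.22, adjusted p = 0.0253), PLK1 (0.21, adjusted p = 0.00102) and CDC20 (0.19, adjusted p = 0.0487). NUF2 was kept in 1 of 6 omissions, PLK1 in 6 and CDC20 in 2. This T47D count of 5 ran from 1 to 21 when 1 library was left out, and it was 2 without trend. Without T47D day 15 replicate 2, 21 rose and 1 fell, beside 11.35% and 13.74% of all genes. MKI67 and CDK1 were not called in any of these comparisons. The medians of the mitosis list were -0.06 at day 3 and 0.05 at day 15 in MDA-MB-231, and -0.01 and 0.07 in T47D. The share of cells in each phase was not measured, and its part in the members' levels was not tested.

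The replication-dependent histone genes were searched by 24 names, each gene under both its current and its earlier symbol, so 24 is not the number of genes. Of these names, 9 were listed in MDA-MB-231 and 11 in T47D. In MDA-MB-231, 0 were called against control, also with voom weights. At an unadjusted p under 0.05 there were 0 at day 3, beside 7.01% of all genes higher and 6.55% lower. At day 15 the unadjusted counts were 0 higher and 4 lower, beside 11% and 12.7%. In T47D, H2BC5 rose by 0.28 at day 3 (adjusted p = 0.0174) and 0.31 at day 15 (adjusted p = 0.0029), and H1-2 by 0.27 (adjusted p = 0.000881) and 0.18 (adjusted p = 0.00813). H2BC12 rose at day 15 (0.12, adjusted p = 0.0121). The H2BC5 call at day 3 was kept in 0 of 6 omissions (highest adjusted p = 0.121) and H2BC12 in 4, while H2BC5 at day 15 and H1-2 on both days were kept in 6 of 6. Without T47D day 15 replicate 2 the day 15 count was again 3 higher and 0 lower. Histone genes of the same family are close copies of each other, so reads may be split among them. Few markers of other cells were listed. Of 10 leukocyte markers, 3 were listed in each line, with summed levels of 72.2 to 79.4 CPM over the MDA-MB-231 groups and 1.30 to 2.04 CPM in T47D, and PTPRC, their defining gene, averaged 0.67 CPM in MDA-MB-231 and was not listed in T47D. Of 10 fibroblast markers, 5 were listed in MDA-MB-231, with sums of 17.8 to 18.8 CPM in the controls, 15.98 to 18.4 CPM after 3 days and 15.3 to 15.9 CPM after 15 days. In T47D 3 were listed, and their sum was 51.8 to 58.5 CPM in the controls, 48.98 to 51.5 CPM after 3 days and 45.1 to 45.99 CPM after 15 days. Of 10 endothelial markers, 4 and 2 were listed, with sums of 92.99 to 105 CPM and 3.66 to 5.40 CPM over all libraries of each line. The part of these transcripts in the members' values was not tested.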

How the data were processed

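RNA was sequenced from 2 cell lines in 6 groups of 3 libraries. Per the submitters' processing notes, the authors used STAR, featureCounts and limma on GRCh38.p13, without versions; how they normalized, filtered and treated strand is not stated there. The authors deposited log2 CPM, one table per line, normalized separately. Every deposited log2 value came within 0.1 of whole reads once 3 added reads (the pseudocount, scaled by depth) were removed, which gave the depths; the scale understates changes of genes with few reads. limma 3.58.1 (R 4.3.3, statmod 1.5.0) was fitted per line to 9 libraries with group means, trend and robust moderation. Calls required p under 0.05 after Benjamini-Hochberg adjustment across the whole table. The difference between lines was the contrast of the folds over 18 libraries. The fit was also run on simulated reads with known fold changes, drawn independently with a common dispersion per line. The simulation held no library standing apart from its group, so it could not test calls that rest on such a library.

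The 42 members, the other gene lists and the tests were chosen with earlier results of these data known. Values in every library are given for members called in at least 2 comparisons within lines and for the 3 largest called folds of each comparison. Of each other list, up to 3 called genes per comparison against control are named, with CDKN1A, CCNE2, CCND1, MKI67, CDK1, DNMT1 and G0S2 whatever their call; the library values of CDT1, POLD1 and CDKN1A were chosen after they were seen. Alternatives were a filter on mean log2 CPM of 1, log2(CPM + 1), centring on library medians, moderation without trend, voom weights, 2 groups per fit, a replicate block and leaving out each library. The series description speaks of parental and Aza-resistant lines; the sample labels were followed.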

Additional observations from a re-analysis of the deposited data

Results flagged for a closer look

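The response to doxycycline differed between the lines in 2 members, by the test of the difference itself (limma, contrast of the within-line folds over 18 libraries). At day 15, 1 of 42 had the higher fold in T47D and 1 the lower, beside 4.07% and 5.37% of all genes compared. GINS4 had a day 15 fold of -0.15 in T47D and 0.02 in MDA-MB-231, a difference of -0.17 (SE 0.0428, adjusted p = 0.0143). UHRF1 had a day 15 fold of 0.17 in T47D and -0.01 in MDA-MB-231, a difference of 0.18 (SE 0.0508, adjusted p = 0.0247). Without T47D day 15 replicate 2 the differences were -0.19 (adjusted p = 0.00612) and 0.14 (adjusted p = 0.0442). The GINS4 difference was called in 12 of 12 omissions of 1 library and that of UHRF1 in 7 of 12. Groups of 3 libraries are too small for a test of outlying samples.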

How the results depend on the processing

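The direction of each called member was kept in every setting run. Counts of called members did not hold as well. Without trend and robust moderation the MDA-MB-231 counts were 0 lower at day 3, 0 higher and 0 lower at day 15, and 0 higher from day 3 to day 15, and the T47D counts 0 lower at day 3, 1 higher at day 15 (GINS3, adjusted p = 0.0498, in place of GINS2 and UHRF1) and 0 higher from day 3. With 2 groups per fit they were, in MDA-MB-231, 2 lower at day 3, 0 higher at day 15 and 6 higher from day 3, and in T47D 0 higher and 0 lower at day 15 and 0 higher from day 3. Centring gave 2 higher at day 15 in MDA-MB-231 and 1 in T47D. The cause of these moves was not tested.

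The replicate block, which treats equal replicate numbers as pairs, gave in MDA-MB-231 6 lower at day 3, 4 higher and 4 lower at day 15, and 14 higher from day 3, and in T47D 0 lower at day 3, 0 higher at day 15 and 0 higher from day 3. Libraries with the same number correlated, in their deviations from group means, by -0.03 to 0.28 in MDA-MB-231 (median 0.09). Those with different numbers correlated there by -0.26 to 0.19 (median -0.06). In T47D the ranges were -0.41 to 0.07 (median -0.02) and -0.27 to 0.39 (median 0.02). The best partner had the same number in 11 of 18 cases in MDA-MB-231 and in 3 of 18 in T47D. Whether equal numbers are true pairs was not settled, and they may pair nothing.

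Leaving out 1 library gave, in MDA-MB-231, 0 to 2 lower members at day 3, 0 to 3 higher and 0 to 4 lower at day 15, and 1 to 10 higher from day 3 to day 15. In T47D it gave 0 to 1 lower at day 3, 0 to 8 higher and 0 to 2 lower at day 15, and 0 to 7 higher from day 3. The difference between lines at day 15 had 0 to 3 higher and 1 lower. The other counts, with 0 called, remained at 0. The filter on low values, log2(CPM + 1) and voom weights kept each count within 1.5 times.

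Over all genes, the count called was 253, 1173 and 763 in MDA-MB-231 (day 3, day 15, and day 15 against day 3) and 277, 1659 and 824 in T47D. Without trend it was 63, 232 and 32 in MDA-MB-231 and 549 for the last T47D comparison. With 2 groups per fit it was 476 and 776 for the first 2 MDA-MB-231 comparisons, and 921, 996 and 463 in T47D. The replicate block gave 637, 2273 and 1788 in MDA-MB-231 and 511 for the last T47D comparison. Leaving out 1 library gave 119 to 259, 457 to 1897 and 124 to 1664 in MDA-MB-231, and 182 to 214, 930 to 3705 and 403 to 2604 in T47D. For the difference between lines at day 15 it gave 860 to 1899 rather than 1196.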
